A study of Mus musculus with 8 samples.

Results

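The 51 genes described here are the matrix metalloproteases (MMPs), the ADAMTS proteases, the ADAMTS-like proteins and the tissue inhibitors of metalloproteases (TIMPs) of mouse gastrocnemius (GAS) muscle. They were chosen by name alone, as every symbol of the authors' table of the form Mmp, Adamts or Adamtsl with a number, and *Timp1* to *Timp4*. They comprise 23 MMPs, 19 ADAMTS, 5 ADAMTS-like genes and 4 TIMPs, among 22664 gene symbols on 22206 probe sets (groups of short array probes for 1 gene). Each of the 51 had 1 probe set, listed for that gene alone, so no choice between probe sets was needed.

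The samples were GAS muscles of male C57/Bl6j mice that received an intramuscular adeno-associated virus (AAV) at about 10 weeks of age and whose age is labelled 22 weeks, 3 months later. In the group AAV sh-RNA MYTHO (4 arrays, MYTHO-KD below) the virus carried a short hairpin RNA against the transcript of *D230025D16Rik*, the gene coding for MYTHO, and in the group AAV sh-RNA scrmb (4 arrays, scramble below) it carried a scramble hairpin. Both groups were thus injected and transduced, and both hairpins were driven by the U6 promoter, which is not restricted to muscle fibers. The paper describes the AAV serotype used as having a tropism for skeletal muscle cells. The scramble virus went into the opposite leg of the mouse, and RNA came from whole muscle pieces with all their cell types. The comparison asks which transcripts differ after prolonged loss of MYTHO.

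Zinc-dependent proteases of these families cut the extracellular matrix around muscle fibers, and they are made as inactive precursors. MMPs degrade collagens, elastin, laminin and fibronectin, and ADAMTS proteases trim procollagens and cut large proteoglycans. TIMPs bind the active site of MMPs, and *Timp3* also blocks several ADAMTS and ADAM proteases. In skeletal muscle, fibroblasts of the interstitium, macrophages, endothelial cells and satellite cells produce most of them, and their activity is known to rise when muscle is injured or remodeled.

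The authors deposited the log2 signal of each probe set as an average over the arrays of a group with its standard deviation (SD), and values of single arrays were not analysed here. Whether the arrays of the groups overlap was therefore not assessed, and each value below is a group average with the authors' SD over 4 arrays. The paper names SST-RMA as the normalization, while the submitters' processing notes name RMA. SST-RMA transforms probe signals against compression, and its fold changes can be larger than those of plain RMA. Signals of different probe sets cannot be ranked against each other. The averages of all probe sets ran from 3.18 to 19.93, and the median difference between the groups was -0.01. *D230025D16Rik* itself, on chromosome 8 from 105225145 to 105253053 (mm10), averaged 7.71 (SD 0.66) in MYTHO-KD and 10.02 (SD 0.37) in scramble. That is 20.2% of the scramble signal (difference -2.31, standard error 0.304, adjusted p = 0.0138, limma). All 8 skeletal muscle fiber markers were marked as expressed in both groups, with averages between 17.58 and 19.93, so the labelled tissue had its defining transcripts.

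Of the 51 genes, 7 were higher in MYTHO-KD at an unadjusted p under 0.05 and 0 were lower, while 44 did not pass. The share higher was 13.7%, against 6.48% of all probe sets, and the share lower was 0%, against 5.52% of all probe sets. At 2-fold or more with the same p, the threshold of the study's methods, 3 genes were higher (5.88%, against 0.86% of all probe sets) and 0 were lower (against 0.257%). The genes at 2-fold were *Mmp12*, *Mmp2* and *Timp1*, and the other 4 that passed were *Adamtsl5*, *Adamts9*, *Timp2* and *Mmp15*. In scramble the averages of *Mmp12* (5.33) and *Timp1* (4.46) lay below 5.715, the limit used below for dim signals. *Timp1* was also marked as not expressed in scramble. With the Benjamini-Hochberg correction across the whole table in limma's moderated test, 0 of the 51 genes and 0.275% of all probe sets had a p under 0.05. Adjusted p of the 7 ran from 0.0754 to 0.337, and with a trend and robust fitting of the variances the adjusted p of *Mmp12* was 0.0313.

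The median difference of the 51 genes was 0.03 (log2), with 27 averages higher, 23 lower and 1 equal. Over all probe sets the median was -0.01, and 46.91% were higher. The 44 genes that did not pass spanned -0.42 to 0.43. Their 95% intervals reached down to -1.07 for *Mmp27* and up to 1.12 for *Mmp14*, so a 2-fold change lay inside the interval of some of them. Averages over both groups lay above 5.715, the 30th percentile of all probe sets, for 26 of the 51 genes. The other 25 were dim, among them 16 of the 23 MMPs, and a change in a dim transcript can go unseen.

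**Figure D1:**
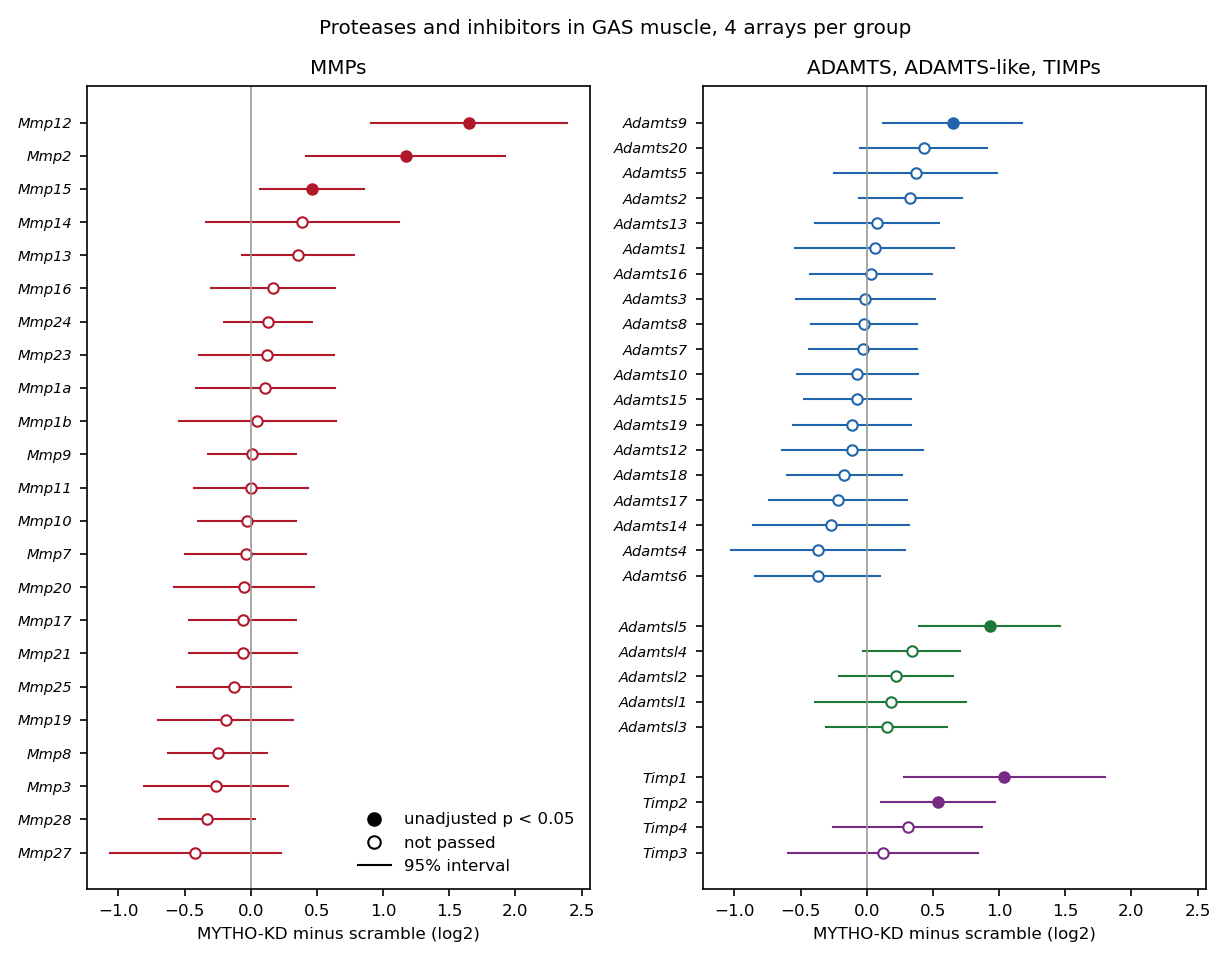
Difference between the group averages (log2, MYTHO-KD minus scramble) for each of the 51 genes by family, with the 95% interval of limma's moderated test as a line. Filled points passed an unadjusted p under 0.05, and all 7 of them lie to the right of 0, led by *Mmp12* at 1.65.

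**Figure D2:**
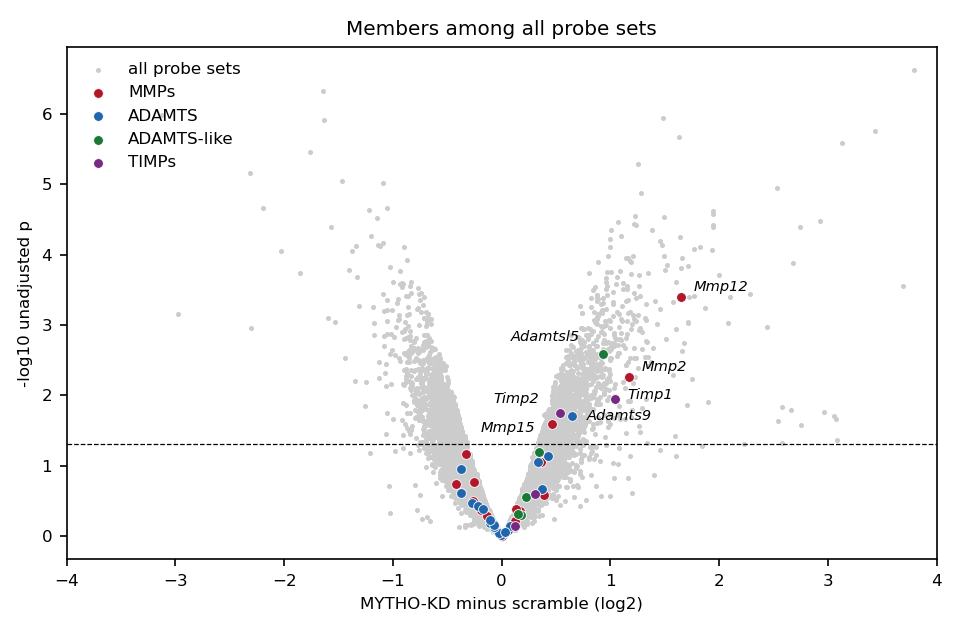
Difference between the group averages (log2) against the -log10 of the unadjusted p from limma's moderated test, for all 22206 probe sets in gray and for the 51 genes in color by family. The dashed line marks p of 0.05, and the named genes above it are the 7 that passed.

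*Mmp12*, which encodes macrophage elastase, showed the largest difference of the 51 genes. Its average was 6.98 (SD 0.77) in MYTHO-KD and 5.33 (SD 0.40) in scramble, the latter below the dim limit of 5.715. The averages lay further apart than the sum of both SDs, with the wider spread in MYTHO-KD. The difference of 1.65 (standard error 0.340, 95% interval 0.909 to 2.39) is a 3.14-fold higher signal (adjusted p = 0.0754, limma). Macrophages are the best known source of this enzyme. All 10 macrophage markers had a higher average in MYTHO-KD, against 46.91% of all probe sets. At an unadjusted p under 0.05, 5 of them were higher, against 6.48% of all probe sets. The mean of the markers' averages was 8.08 against 7.16 in scramble. The lowest p were those of *Cd68* (2.53, adjusted p = 0.0182), a lysosomal protein, *Lyz2* (1.94, adjusted p = 0.0277), a lysozyme, and *C1qb* (1.27, adjusted p = 0.0754), a complement component. The part of these markers in the difference of *Mmp12* was not tested. In RNA from whole muscle, more cells of a type and more RNA per cell cannot be told apart.

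The other enzymes of the stromelysin and matrilysin group did not pass. *Mmp3* (stromelysin-1) averaged 5.50 and 5.76 in MYTHO-KD and scramble, *Mmp7* (matrilysin) 4.77 and 4.81, *Mmp10* (stromelysin-2) 4.31 and 4.34, and *Mmp11* (stromelysin-3) 5.31 in both. All 4 were dim, and their differences spanned -0.26 to 0.00.

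The gelatinases cut denatured collagen and basement membrane components, and 1 of the 2 passed. *Mmp2* (gelatinase A) averaged 11.07 (SD 0.67) in MYTHO-KD and 9.90 (SD 0.58) in scramble. Its difference of 1.17 (standard error 0.345, 95% interval 0.416 to 1.92) is a 2.25-fold higher signal with an adjusted p of 0.199 (limma). *Mmp9* (gelatinase B), which neutrophils store in granules, averaged 4.53 (SD 0.13) and 4.52 (SD 0.11), with a 95% interval of the difference from -0.325 to 0.345. *Mmp9* was dim, so a change in it can go unseen. The difference between the gelatinases' responses was not tested. None of 10 neutrophil markers passed an unadjusted p of 0.05, and their median difference was 0.02. Only 3 of these 10 lay above the dim limit and 8 were marked as expressed in both groups, so a change in them can go unseen. *Mmp8*, the neutrophil collagenase, averaged 4.78 and 5.03, and *Mmp25*, a membrane-anchored enzyme of leukocytes, 5.23 and 5.36, neither past the threshold.

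*Mmp2* is made mainly by fibroblasts, and its precursor is activated at the cell surface by a complex of the membrane enzyme *Mmp14* with *Timp2*. *Timp2* averaged 12.75 (SD 0.35) in MYTHO-KD and 12.21 (SD 0.16) in scramble, a difference of 0.54 (standard error 0.197, adjusted p = 0.303, limma). *Mmp14* averaged 7.44 (SD 0.78) and 7.05 (SD 0.34), and its difference of 0.39 did not pass, with a 95% interval from -0.339 to 1.12. Of 10 fibroblast markers, 9 averages were higher and 7 passed, all higher, against 46.91% and 6.48% of all probe sets. The lowest p were those of *Lum* (1.49, adjusted p = 0.0443), *Mfap5* (1.08, adjusted p = 0.108) and *Pi16* (1.14, adjusted p = 0.126), all by limma. *Pdgfra*, the receptor that defines fibro-adipogenic progenitors, was at 7.07 and 6.89 and did not pass, and its probe set is shared with another gene. The mean of the averages of these markers was 10.09 in MYTHO-KD and 9.43 in scramble, and their part in the *Mmp2* difference was not tested.

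Among the 6 membrane-anchored MMPs, which act at the cell surface, *Mmp15* alone passed. It averaged 8.26 (SD 0.18) in MYTHO-KD and 7.80 (SD 0.26) in scramble, a difference of 0.46 (standard error 0.180, 95% interval 0.0663 to 0.854, adjusted p = 0.337, limma). The 5 others spanned -0.13 to 0.39. *Mmp16*, *Mmp17*, *Mmp24* and *Mmp25* were dim, and *Mmp24* was marked as not expressed in scramble.

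None of the 4 collagenases, which make the first cut in fibrillar collagen, passed the threshold. The largest difference was that of *Mmp13*, the main interstitial collagenase of rodents, which averaged 5.28 (SD 0.10) in MYTHO-KD and 4.92 (SD 0.36) in scramble (difference 0.36, 95% interval -0.0630 to 0.783). All 4 lay among the dim probe sets. The remaining 6 MMPs, which include the enamel protease *Mmp20*, spanned -0.42 to 0.12, and 5 of them had a lower average in MYTHO-KD. *Mmp27* had the largest of these differences, from 5.77 (SD 0.37) to 5.35 (SD 0.63), with a 95% interval from -1.07 to 0.225. *Mmp28* (epilysin) averaged 5.37 and 5.70 with an SD of 0.17 in each group, and its interval from -0.690 to 0.0300 ended just above 0.

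**Figure D3:**
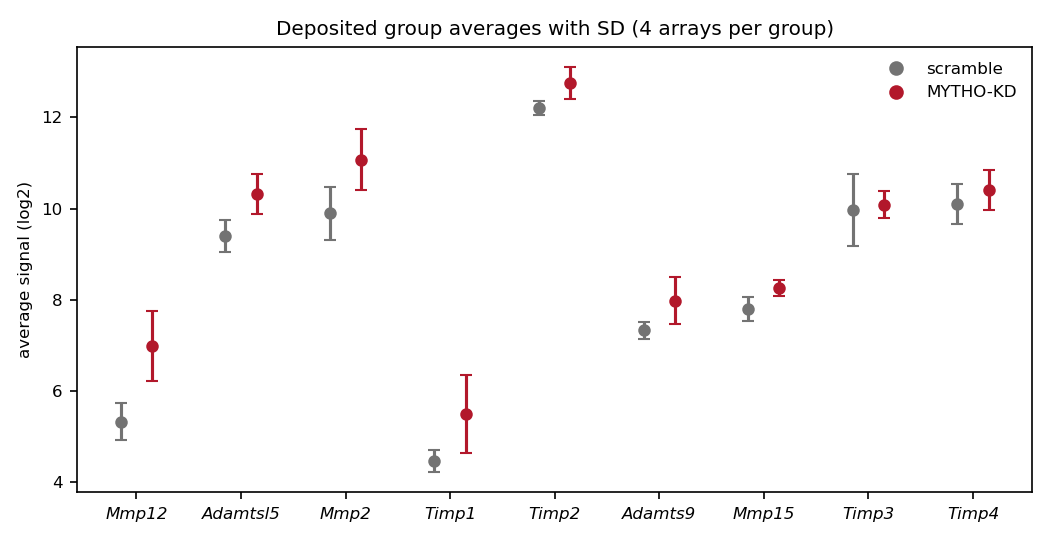
Deposited average signal (log2) in scramble and MYTHO-KD for the 7 genes that passed the unadjusted threshold, in order of p, and for *Timp3* and *Timp4*. Bars are the authors' SDs over 4 arrays, which are wider in MYTHO-KD for 6 of the 7 genes.

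By position, 10 of the 23 MMP genes lie in 1 cluster on chromosome 9, between 7272514 and 7699585 (mm10), a span of 427.1 kb. From one end to the other it holds *Mmp13*, *Mmp12*, *Mmp1b*, *Mmp3*, *Mmp1a*, *Mmp10*, *Mmp8*, *Mmp27*, *Mmp20* and *Mmp7*. In this cluster *Mmp12* passed and the 9 others did not. Of those 9, all but *Mmp20* were dim, so a change in them can go unseen. The scramble average of *Mmp12*, 5.33, also lay below the dim limit of 5.715. Only its MYTHO-KD average of 6.98 kept *Mmp12* from being counted as dim. Its neighbors *Mmp13* and *Mmp1b* differed by 0.36 and 0.05, and the 7 genes beyond spanned -0.42 to 0.11. The extents of *Mmp12* and *Mmp1b* in the table overlap by 1830 bases on opposite strands. Other members that lie close together are *Adamts1* and *Adamts5* on chromosome 16, *Adamts13* and *Adamtsl2* on chromosome 2, and *Adamts15* and *Adamts8* on chromosome 9, and none of these 6 passed.

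**Figure D4:**
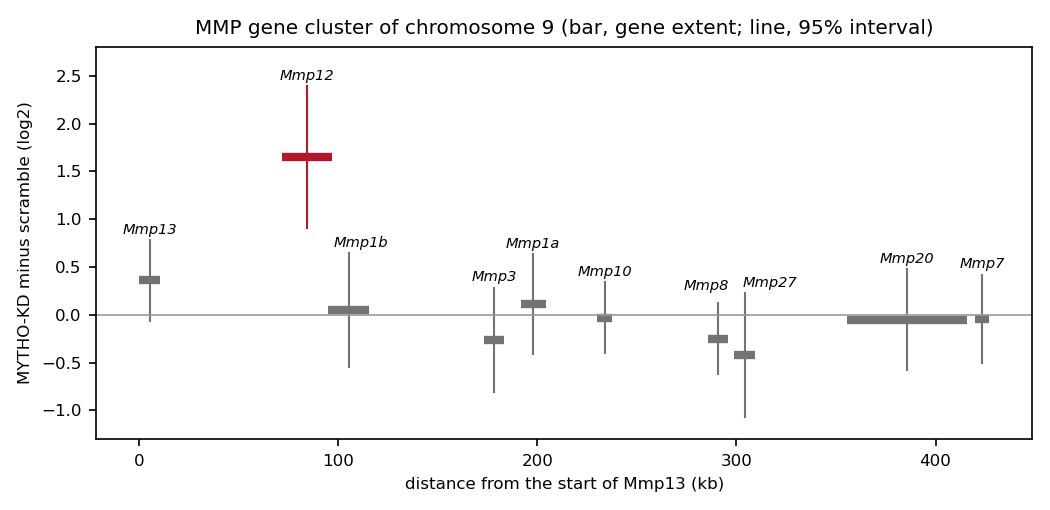
Difference between the group averages (log2, MYTHO-KD minus scramble) along the MMP cluster, by distance in kb from the start of *Mmp13*. Horizontal bars span each gene and vertical lines the 95% interval, and only the interval of *Mmp12*, in red, lies wholly above 0. All the other genes but *Mmp20* were dim, and the scramble average of *Mmp12* also lay below the dim limit.

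Most promoters of this cluster match a short pattern, shown here because *Mmp12* passed the test and its neighbors with a match did not. Apart from *Mmp20* these neighbors were dim, and the difference between *Mmp12* and them was not tested. In scramble *Mmp12* itself averaged 5.33, below the dim limit of 5.715. The letters searched were TGANTCA (N is any base), which read the same on the other strand and include the binding sequence of AP-1 (dimers of Jun and Fos proteins). The match was TGAGTCA in *Mmp12* and most neighbors, but TGACTCA in *Mmp13* and TGAATCA in *Mmp20*. The only neighbor that was not dim thus held other letters than *Mmp12*. The window was 250 bases before to 50 after each start, from RefSeq (GRCm38.p6). Of the 51 genes 36 had a window, and 8 of these held the letters (22.2%), against 8.97% of the 27025 genes of the RefSeq table. All 8 belong to the chromosome 9 cluster, in which only *Mmp8* and *Mmp27* lacked them, while 0 of the 26 other members held them. In *Mmp12* the first base of the match lay 44 bases before the start at the second of its listed windows, while its first window, at the gene start of the authors' table, held none. *Mmp7* also held the letters in 1 of its 2 windows, and a gene was counted where any window held them. Below are the 41 bases around each match on the strand of the gene, with the match in capitals. They lie at chr9:7347313-7347353 for *Mmp12*, chr9:7272462-7272502 for *Mmp13*, chr9:7388096-7388136 (minus strand) for *Mmp1b*, chr9:7445759-7445799 for *Mmp3*, chr9:7464051-7464091 for *Mmp1a*, chr9:7502262-7502302 for *Mmp10*, chr9:7628119-7628159 for *Mmp20* and chr9:7692010-7692050 for *Mmp7*.
Mmp12: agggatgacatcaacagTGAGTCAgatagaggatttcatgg
Mmp13: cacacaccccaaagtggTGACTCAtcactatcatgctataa
Mmp1b: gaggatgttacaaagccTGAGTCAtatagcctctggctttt
Mmp3: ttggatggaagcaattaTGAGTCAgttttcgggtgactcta
Mmp1a: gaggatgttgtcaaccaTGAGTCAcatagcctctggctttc
Mmp10: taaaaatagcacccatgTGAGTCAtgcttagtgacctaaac
Mmp20: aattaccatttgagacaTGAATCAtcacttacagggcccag
Mmp7: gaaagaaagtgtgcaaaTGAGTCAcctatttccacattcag

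As the gene with the largest difference, *Mmp12* is also shown with all 250 bases before this start (chr9:7347124-7347373, plus strand, match in capitals), which lies inside the extent the authors' table gives for the gene.
Mmp12 promoter: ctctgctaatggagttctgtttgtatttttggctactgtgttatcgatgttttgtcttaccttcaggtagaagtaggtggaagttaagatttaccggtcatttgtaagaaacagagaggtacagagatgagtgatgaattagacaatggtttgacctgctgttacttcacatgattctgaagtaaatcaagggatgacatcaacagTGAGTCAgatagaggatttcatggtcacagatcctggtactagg

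The matches began between 35 and 95 bases before the start. A match is a description of the letters and not a shown binding site. Of the 7 genes that passed, 6 had a window and 1 (*Mmp12*) held the letters. Of 8 AP-1 subunits 2 passed, *Jun* (difference 0.56, adjusted p = 0.321, limma) and *Jund* (0.47, adjusted p = 0.408, limma), both higher in MYTHO-KD. Of all probe sets, 6.48% were higher at the same unadjusted threshold.

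Among the ADAMTS proteases, *Adamts9* was the 1 of 19 that passed, a share near the 6.48% of all probe sets that were higher. It encodes a widely expressed enzyme that cuts the proteoglycans versican and aggrecan. Its average was 7.98 (SD 0.52) in MYTHO-KD and 7.33 (SD 0.18) in scramble, a difference of 0.65 (standard error 0.241, 95% interval 0.123 to 1.18, adjusted p = 0.316, limma). Without moderation of the variances its unadjusted p was 0.0561, so the call was lost. The 6 other proteoglycanases did not pass. *Adamts20* averaged 8.96 (SD 0.46) and 8.53 (SD 0.11), *Adamts5*, the main aggrecanase of mouse cartilage, 8.06 (SD 0.53) and 7.69 (SD 0.44), and *Adamts1* 9.62 (SD 0.59) and 9.56 (SD 0.31). *Adamts4* averaged 4.83 and 5.20 with an SD of 0.74 in scramble, and *Adamts8* and *Adamts15* differed by -0.02 and -0.07.

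The procollagen N-propeptidases, which remove the amino-terminal extension of fibrillar procollagens, did not pass either. *Adamts2* averaged 7.63 (SD 0.20) in MYTHO-KD and 7.30 (SD 0.23) in scramble (difference 0.33, 95% interval -0.0583 to 0.718). *Adamts3* and *Adamts14* differed by -0.01 and -0.27. *Adamts7* and *Adamts12*, which cut cartilage oligomeric matrix protein (COMP), and *Adamts13*, which cuts von Willebrand factor, lay between -0.11 and 0.08, and the largest of these was *Adamts12* (7.25 and 7.36). The 6 other ADAMTS spanned -0.37 to 0.03, with 5 averages lower. *Adamts6* stood at the lower end, from 5.92 (SD 0.36) in scramble to 5.55 (SD 0.29), with a 95% interval from -0.843 to 0.103.

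ADAMTS-like proteins resemble the carboxy-terminal part of ADAMTS proteases, lack the protease domain and bind matrix microfibrils. All 5 averages were higher in MYTHO-KD, by 0.15 to 0.93, and 1 passed. *Adamtsl5* averaged 10.32 (SD 0.44) in MYTHO-KD and 9.39 (SD 0.35) in scramble, a difference of 0.93 (standard error 0.245, 95% interval 0.396 to 1.46). This 1.91-fold higher signal had the second lowest p of the 51 genes (adjusted p = 0.153, limma). *Adamtsl4*, a fibrillin-1 binding protein, averaged 9.44 (SD 0.21) and 9.10 (SD 0.14), and the interval of its difference of 0.34 ran from -0.0249 to 0.705. *Adamtsl1*, *Adamtsl2* and *Adamtsl3* differed by 0.18, 0.22 and 0.15 and did not pass. In all probe sets a higher average alone was common, at 46.91%, and 6.48% were higher at the unadjusted threshold.

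The 4 TIMPs also all had a higher average in MYTHO-KD, and 2 passed, *Timp2* as given above and *Timp1*. Over all probe sets 46.91% had a higher average and 6.48% were higher at the unadjusted threshold. *Timp1*, the inhibitor most readily induced in injured tissue, averaged 5.50 (SD 0.86) in MYTHO-KD and 4.46 (SD 0.24) in scramble. Both averages lay below the dim limit of 5.715. *Timp1* was marked as expressed in MYTHO-KD and as not expressed in scramble, so the scramble average is only a bound. Taken at that bound, the averages differed by 1.04, or 2.06-fold (standard error 0.348, adjusted p = 0.256, limma). The 95% interval ran from 0.28 to 1.80, so a smaller difference is not excluded. Its SD in MYTHO-KD was the widest of the 7 genes that passed, and without moderation the unadjusted p was 0.0587, so the call was lost. *Timp3*, which is bound to the matrix, averaged 10.09 (SD 0.30) and 9.97 (SD 0.78), a difference of 0.12 with a 95% interval from -0.598 to 0.838. *Timp4*, the TIMP known for its expression in heart and muscle, averaged 10.41 and 10.10 with an SD of 0.43 in each group, a difference of 0.31 (95% interval -0.254 to 0.874). Neither passed, and neither interval excludes a change of the size seen for *Timp2*.

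By the table's coordinates (mm10), 3 of the TIMP genes lie inside synapsin genes on the opposite strand. *Timp1* (chromosome X, 20870166 to 20874737) lies in *Syn1*, *Timp4* (chromosome 6, 115242652 to 115251849) in *Syn2* and *Timp3* (chromosome 10, 86300372 to 86349506) in *Syn3*. Synapsins are proteins of nerve terminals, and none of the 3 host genes passed. *Syn1* averaged 4.04 (SD 0.41) in MYTHO-KD and 4.56 (SD 0.36) in scramble, and it was marked as not expressed in MYTHO-KD. *Syn2* and *Syn3* differed by 0.33 and 0.02.

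Among 15 genes for proteins that activate, clear or block these enzymes 1 passed, a share near the 6.48% of all probe sets that were higher. It was *Lrp1*, an endocytic receptor that removes MMPs and ADAMTS proteases from the matrix, with averages of 10.26 (SD 0.50) in MYTHO-KD and 9.26 (SD 0.51) in scramble (difference 1.00, adjusted p = 0.191, limma). The plasminogen activators *Plau* and *Plat* differed by 0.10 and 0.08, and the membrane-bound MMP inhibitor *Reck* by 0.11, none past the threshold. Of 11 ADAM sheddases 1 passed, *Adam17*, the protease that releases tumor necrosis factor (9.86, SD 0.56, against 9.18, SD 0.09, adjusted p = 0.300, limma). That count is likewise to be read beside the 6.48% of all probe sets that were higher.

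Of 20 matrix proteins that these enzymes cut, 18 averages were higher in MYTHO-KD, 7 passed and all 7 were higher, with a median difference of 0.335 over the list. The lowest p were those of the proteoglycan *Bgn* (1.94, adjusted p = 0.0290), the fibrillar collagen *Col3a1* (1.43, adjusted p = 0.102) and the laminin chain *Lama2* (0.87, adjusted p = 0.153), all by limma. The others that passed were *Fn1*, *Fbn1*, *Comp* and *Col5a1*. These counts stand beside 46.91% of all probe sets with a higher average and 6.48% higher at the same unadjusted threshold. The large proteoglycans that ADAMTS proteases cut did not pass, with *Acan* at 0.03 and *Vcan* at 0.14. Whether substrates and proteases differ in their response was not tested.

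Of the markers of other cell types in muscle, 2 of 7 endothelial genes passed, both higher (median 0.37). Over all probe sets 6.48% were higher at this threshold. None passed among 6 mast cell, 6 smooth muscle and pericyte and 6 satellite cell genes. Of 8 skeletal muscle fiber genes 2 passed, *Myh1* and *Myh2*, both higher. *Acta1* and *Myh4* stood at 19.93 in both groups, the top of the scale, and *Myh2* was close to it at 19.91 in MYTHO-KD, so differences of these genes have no exact size. The differences of the 7 genes that passed thus stood beside higher averages of macrophage, fibroblast and endothelial markers, and the part of these cells in them was not tested.

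**Figure D5:**
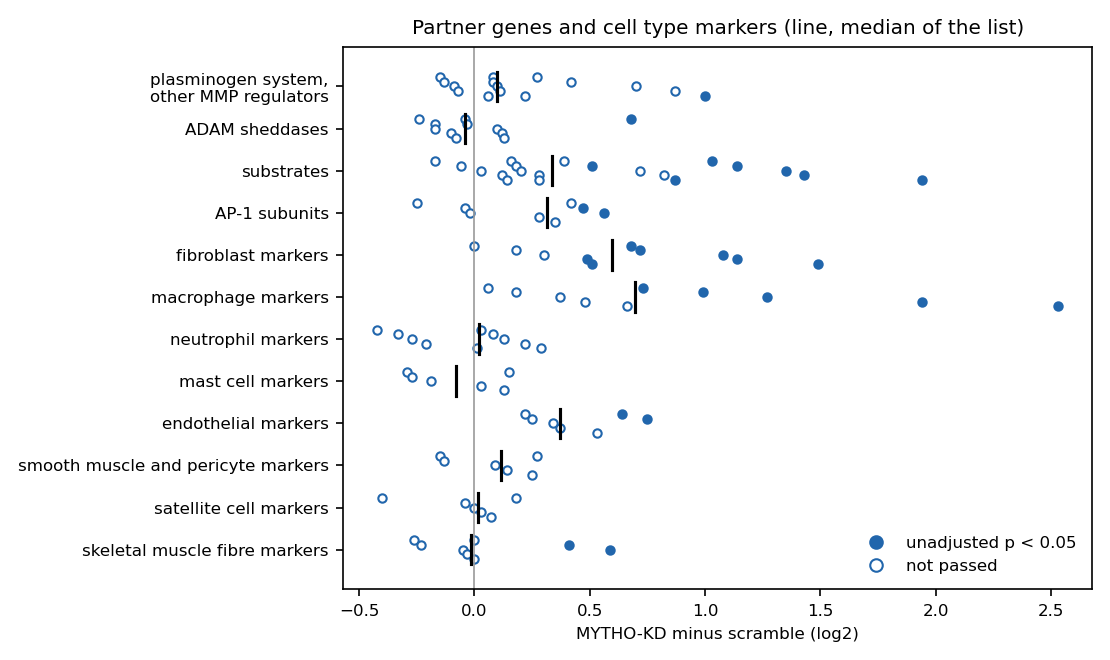
Difference between the group averages (log2, MYTHO-KD minus scramble) for the genes of each list, 1 point per gene, with the median of the list as a black line and filled points for an unadjusted p under 0.05. Substrates, fibroblast and macrophage markers hold most of the filled points, up to 2.53 for *Cd68*, and neutrophil and mast cell markers hold none. Of the 10 neutrophil markers only 3 lay above the dim limit.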

How the data were processed

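Clariom S Mouse arrays of GAS RNA were processed by the authors in the Transcriptome Analysis Console (SST-RMA, default parameters; annotation on mm10 per the file headers). The submitters' processing notes name Affymetrix Expression Console and RMA. The deposited table holds, per probe set, the authors' average of log2 signal and SD for each group, a flag for expression, and the authors' fold changes and p-values, which were not used; 0 columns of single arrays were left unused. Whether averages are plain means is not stated.

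The moderated test of limma 3.58.1 (R 4.3.3) was computed from averages and SDs of 4 arrays per group (6 residual degrees of freedom, prior SD 0.284, prior degrees of freedom 5.85), two-sided, with Benjamini-Hochberg adjustment over 22206 probe sets. It was tested on simulated data, where it equaled limma on single arrays for plain means and called more unchanged probe sets for Tukey biweight averages. The study's threshold was 2-fold with an unadjusted p under 0.05. Scramble and MYTHO-KD legs came from the same mice, but averages do not keep the pairs, so the test is unpaired. Its standard errors rest on the spread between samples within each group, and not on differences within a mouse. How a paired test would change the p-values was not assessed.

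Members and lists were chosen with earlier results of these data known. The rule names members that passed, every TIMP, the most changed member of each role group, up to 3 genes per list and the target; other names were added after their values were seen. Arrays have no sequencing depth, and their number limits the precision. Alternatives were no moderation, unequal variances, variances fitted robustly with a trend, dim probe sets left out, 1 probe set per symbol and 1.5-fold.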

Additional observations from a re-analysis of the deposited data

How the results depend on the processing

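No paired analysis was possible because the columns used hold group averages with no replicate numbers, and for the same reason leaving out single arrays was not run. The 7 higher genes were counted as 6 without moderation and with unequal variances, where *Adamtsl4* entered while *Adamts9* (unadjusted p of 0.0561 and 0.0826) and *Timp1* (unadjusted p of 0.0587 and 0.0904) did not pass, and as 6 without dim probe sets, which leaves *Timp1* out. Genes lower in MYTHO-KD numbered 0, and 1 (*Mmp28*, unadjusted p of 0.0335 in both) without moderation and with unequal variances. Genes past the adjusted p numbered 0, and 1 (*Mmp12*) with a trend and robust fitting; the cause of these changes was not tested. Genes at 2-fold numbered 3, and 2 without moderation, with unequal variances and without dim probe sets, each time without *Timp1*, and 5 at 1.5-fold, which is a wider limit. The calls of *Mmp12*, *Mmp2*, *Adamtsl5*, *Timp2* and *Mmp15* at the unadjusted p held under all 5 alternatives that change the test or the probe sets tested. *Mmp12* escaped the removal of dim probe sets only through its MYTHO-KD average of 6.98, as its scramble average of 5.33 lay below the limit of 5.715. That setting is therefore no added support for its call. The median difference was 0.03, and 0.2 without dim probe sets. Should the deposited averages be other than plain means, the p-values may be too low, which would bear most on *Mmp15*, *Adamts9* and *Timp2*, whose p lay nearest to 0.05. Dim signals, those of 25 of the 51 genes, can hide a fall.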
